A study of Homo sapiens with 8 samples.

Results

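The genes described here are 9 genes of MHC class I antigen presentation: HLA-B, HLA-C, HLA-E, B2M, TAP1, TAP2, TAPBP, PSMB8 and PSMB9. They were chosen by name, and all 9 were found among the 14528 genes that could be named in the deposited table, with 13 of its 24812 transcripts. The data come from SQ20B, an established line of head and neck squamous cell carcinoma cells. Poly(A)-selected RNA of 4 normoxia replicates and of 4 replicates held at 0.5% O2 for 16 h (hypoxia) was sequenced, all in the same medium, so that low oxygen is the only labelled difference between the groups. The table gives 1 FPKM value (a fragment number scaled by transcript length and by the mapped fragments of the library) for each transcript and condition, the authors' value over the replicates. No spread between replicates could therefore be computed, no test was run, and every difference below is a description of a pair of pooled values. The depth behind a single transcript is unknown, so no interval or detection limit is given.

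Class I molecules show peptides from inside the cell to cytotoxic T cells. The proteasome cuts proteins into peptides, the TAP transporter carries them into the endoplasmic reticulum, and tapasin holds an empty class I molecule next to TAP until a peptide is bound. A class I molecule pairs a heavy chain, such as HLA-B, HLA-C or HLA-E, with the invariant light chain beta-2 microglobulin. Interferon gamma is the classical inducer of the whole set, and squamous carcinomas are known for losing parts of it.

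Only 1 of the 9 genes, B2M, was listed on a primary chromosome. The selection rule asked for rows on primary chromosomes, and the other 8 genes had none. Their 12 transcripts were each listed once, on alternative haplotype contigs of chromosome 6: chr6_ssto_hap7 for 6 genes, chr6_mann_hap4 for HLA-C and chr6_qbl_hap6 for TAPBP. No listed transcript lay on chromosome 6 itself over the 5.13 Mb that span the MHC. Values of these 8 genes are therefore those of the haplotype rows, an alternative to the rule that was needed to describe them. How reads that match several of these assemblies were shared among them is not given in the sources used here. HLA-B, HLA-C and HLA-E are also close in sequence to one another, so the levels of single heavy chains are uncertain, and the part of read sharing in the values was not tested. Comparisons of these 8 genes with B2M, or with other genes listed on primary chromosomes, rest on rows of different kinds.

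Changes are given as log2((hypoxia FPKM + 0.1)/(normoxia FPKM + 0.1)) of the FPKM summed over the transcripts of a gene. They are set beside those of the 12106 genes whose mean FPKM reached 0.5, a limit that all 9 genes passed. The median log2 change of these genes was -0.07. A difference of at least 1.5-fold was reached upwards by 9.95% and downwards by 11.2% of them. Of the 9 genes, none was at least 1.5-fold higher in hypoxia and 1, PSMB8, was at least 1.5-fold lower, so that with the deposited values neither count stands far from these shares. Both counts changed when the columns were scaled in other ways, as given at the end of the account. At 1.2-fold, 4 of the 9 genes were higher (HLA-B, HLA-C, HLA-E and TAPBP) and 2 were lower (TAP2 and PSMB8), where 23.8% of all genes were higher and 33% lower. None differed by 2-fold in either direction, as 3.21% of all genes did upwards and 2.62% downwards. The median log2 change of the 9 genes was 0.14, with 7 genes above 0 and 2 below it, where 43.6% of all genes were above 0 and 56.4% below. Without B2M the median was 0.23.

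**Figure D1:**
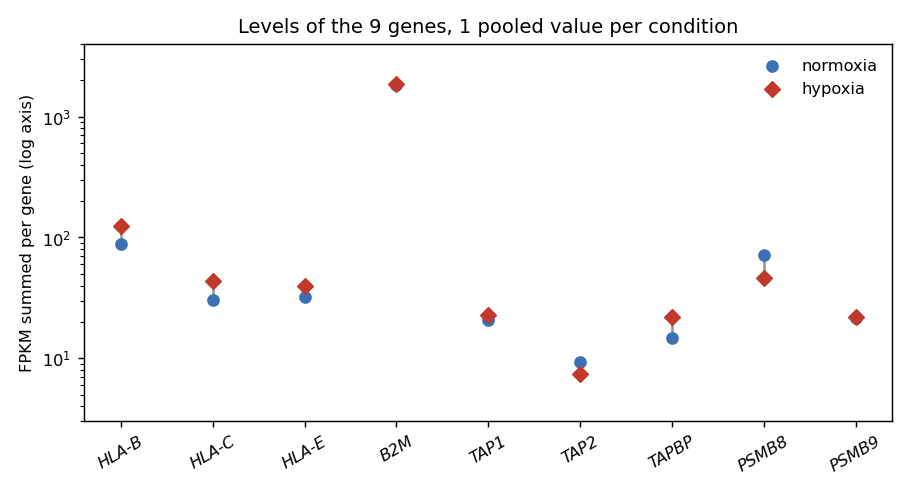
FPKM summed per gene (vertical axis, log scale) of the 9 genes in normoxia (circles) and hypoxia (diamonds), 1 pooled value per condition and so without error bars. B2M lay at 1824 and 1872 FPKM and every other gene between 7.44 and 123 FPKM, with the diamond above the circle for the heavy chains and TAPBP and below it for TAP2 and PSMB8.

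The heavy chains were all higher in hypoxia. HLA-B, a classical heavy chain that presents peptides to CD8 T cells, lies on chromosome 6 of GRCh37 (31321649 to 31334844, minus strand). Its only listed transcript, NM_005514, had 88.8 FPKM in normoxia against 123 FPKM in hypoxia, which is 0.47 higher on the log2 scale. HLA-C, a classical heavy chain that is also a main ligand of killer cell immunoglobulin-like receptors, lies nearby (31236526 to 31239907, minus strand). Its transcript NM_002117 had 30.2 FPKM in normoxia against 43.7 FPKM in hypoxia (log2 change 0.53). HLA-E, which presents leader peptides of other class I molecules to the NKG2A receptor of natural killer cells, lies further along the chromosome (30457286 to 30461971, plus strand). Its transcript NM_005516 had 31.9 FPKM in normoxia against 39.9 FPKM in hypoxia (log2 change 0.32). Each of these differences was smaller than 1.5-fold. In RNA from a whole culture, more cells that make a transcript and more of it per cell cannot be told apart. Among all genes, ranked by log2 change, HLA-C lay at percentile 88.1, HLA-B at 86.2 and HLA-E at 79.5.

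The levels of HLA-B, HLA-C and HLA-E summed to 151 FPKM in normoxia against 207 in hypoxia (log2 change 0.46). The order of these heavy chain levels was HLA-B, HLA-E and HLA-C in normoxia. In hypoxia HLA-C and HLA-E changed places, though no spread is at hand to tell these neighbours apart. The ratio of HLA-B to HLA-C was 2.94 in normoxia and 2.82 in hypoxia.

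B2M, which encodes the light chain shared by all class I molecules, was nearly level. It lies on chromosome 15 (45003556 to 45011049, plus strand), and NM_004048 had 1824 FPKM in normoxia against 1872 in hypoxia (log2 change 0.04). Its level exceeded that of 99.8% of all genes. B2M was 12.1 times the summed HLA-B, HLA-C and HLA-E in normoxia and 9.04 times in hypoxia, a difference of -0.42 on the log2 scale. Since the heavy chains were read from haplotype rows, the size of the ratio itself may depend on how their reads were shared, while both conditions come from the same rows.

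The subunits of the peptide transporter lay on opposite sides of 0. TAP1 (chromosome 6, 32812986 to 32821593, minus strand) and TAP2 (32789610 to 32806516, minus strand) encode the subunits of the heterodimer that pumps peptides across the endoplasmic reticulum membrane. TAP1 had 20.8 FPKM in normoxia against 22.9 in hypoxia, and its log2 change of 0.14 was at percentile 67.5 of all genes. TAP2, summed over its listed transcripts, had 9.29 FPKM in normoxia against 7.44 in hypoxia, and its log2 change of -0.32 was at percentile 28.4. The ratio of TAP1 to TAP2 was thus 2.24 in normoxia and 3.07 in hypoxia. NM_000544 carried 83.9% of the TAP2 level in normoxia and 84.7% in hypoxia, and NM_018833 the rest. Both TAP2 transcripts were lower in hypoxia, with log2 changes of -0.30 for NM_000544 and -0.37 for NM_018833.

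TAPBP encodes tapasin, the bridge between TAP and the empty class I molecule, and had the largest log2 change upwards of the 9 genes with the deposited values, though HLA-B and HLA-C exceeded it under quantile normalization. It lies at 33267471 to 33282061 of chromosome 6 (minus strand) and had 14.8 FPKM in normoxia against 21.9 in hypoxia, and its log2 change of 0.56 was at percentile 89.3. All 3 listed transcripts were higher in hypoxia. NM_172209, which carried 89.4% of the level in normoxia and 89.3% in hypoxia, had 13.3 and 19.6 FPKM. NM_003190 had 0.864 and 1.15 FPKM and NM_172208 had 0.710 and 1.195 FPKM, levels at which the added 0.1 weighs more. The log2 change of NM_172208 was 0.68 with 0.1 added and 0.36 with 1 added.

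The immunoproteasome genes went separate ways. PSMB8 and PSMB9 encode catalytic subunits (LMP7 and LMP2) that replace PSMB5 and PSMB6 when the immunoproteasome is assembled. PSMB8 (chromosome 6, 32808494 to 32812456, minus strand) had 71.9 FPKM in normoxia against 45.8 in hypoxia, 1.57-fold lower. Its log2 change of -0.65 was at percentile 9.05 of all genes. NM_148919 carried 97.1% of this level in normoxia and 97.2% in hypoxia. The minor transcript NM_004159 had 2.12 and 1.30 FPKM, with a log2 change of -0.66 against -0.65 for NM_148919. PSMB9 (32811913 to 32827628, plus strand), by contrast, had 21.7 FPKM in normoxia against 21.8 in hypoxia (log2 change 0.01). This GENCODE interval of PSMB9 overlaps that of PSMB8 and contains that of TAP1, unlike the RefSeq start sites given below. The extent of its listed transcript, NM_002800, is not given. The ratio of PSMB8 to PSMB9 was 3.32 in normoxia and 2.099 in hypoxia.

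PSMB8 overlaps an antisense gene, PSMB8-AS1 (32811855 to 32814277, plus strand), which had 12.0 FPKM in normoxia against 10.2 in hypoxia (log2 change -0.22). The libraries were stranded, but no source states that the counting used the strand. Reads from the overlap of PSMB8 and PSMB8-AS1 may therefore not be told apart. PSMB8-AS1 was singled out after its values were seen.

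The constitutive counterparts were lower in hypoxia as well. PSMB5 had 74.4 FPKM in normoxia and 53.0 in hypoxia (log2 change -0.49), so that the ratio of PSMB8 to PSMB5 was 0.967 in normoxia and 0.865 in hypoxia. PSMB6 had 173 and 126 FPKM (-0.46), and the ratio of PSMB9 to PSMB6 was 0.125 in normoxia and 0.174 in hypoxia. The remaining immunoproteasome subunit, PSMB10, had 9.59 and 6.09 FPKM (-0.65), and its ratio to PSMB7, which it replaces, was 0.0390 and 0.0342. PSMB9 was thus the only one of these 6 catalytic subunits that was not lower in hypoxia, with the deposited values and under each other scaling tried. PSMB8 and PSMB9 were read from haplotype rows, and PSMB5, PSMB6, PSMB7 and PSMB10 from primary chromosomes. The size of the ratios of PSMB8 to PSMB5 and of PSMB9 to PSMB6 may therefore depend on read sharing, which was not tested.

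**Figure D2:**
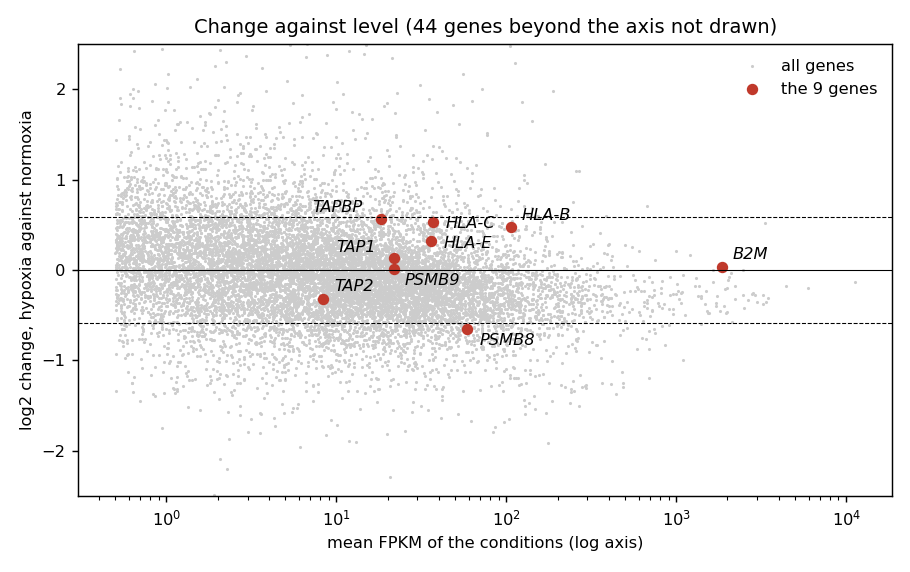
Log2 change from normoxia to hypoxia (vertical axis) against the mean FPKM of the conditions (horizontal axis, log scale) for the 12106 genes whose mean FPKM reached 0.5 (grey) and the 9 genes (red), without error bars because each condition has 1 pooled value. Dashed lines mark 1.5-fold. PSMB8, at -0.65, is the only red point beyond a dashed line, and TAPBP (0.56) and HLA-C (0.53) lie just inside the upper one.

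The split within the MHC cluster of TAP2, PSMB8, TAP1 and PSMB9 runs between direct neighbours. TAP1 and PSMB9 are read in opposite directions from start sites 488 bases apart in GRCh38.p14. With the deposited values their log2 changes were 0.14 and 0.01. PSMB8 and TAP2, read from the same strand as TAP1, were lower in hypoxia (-0.65 and -0.32). With equal sums TAP1 was at 0.36 and TAP2 at -0.09, so that TAP2 was then nearer to level than TAP1. Promoter sequences from RefSeq (GRCh38.p14, 250 bases before to 50 after each start) were found for 8 of the 9 genes, the exception being HLA-E, and numbered 10, since PSMB8 and TAP1 have more than 1 each. The promoters of HLA-B and HLA-C are shown because these genes differed alike between the conditions and because their sequences show how close the heavy chain genes are. The windows of 30 bases below are in the direction of the gene, and 26 of the 30 bases are identical. Capitals mark TGACG, the core of the X2 box to which CREB family factors bind. TGACG was also found for PSMB8 and TAP2, which were lower in hypoxia, and for B2M and PSMB9. It was not found for TAP1 or for TAPBP, which was higher in hypoxia. TGACG occurs in 24.5% of all promoters, and any link of it to the changes was not tested.
HLA-B (chr6:31357268-31357297, minus strand): ccaggatactcgTGACGcgtccccacttcc
HLA-C (chr6:31272180-31272209, minus strand): cctgaatactcaTGACGcgtccccaattcc

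Interferon-stimulated response elements are bound by interferon-activated factors, and their repeat GAAANNGAA was searched on both strands, overlaps included. It occurred in 5 of the 10 promoters, 1 each of B2M, PSMB8, TAP1, TAP2 and TAPBP, where 8.11% of all 34796 promoters of the same length hold it. The matches of TAP1 lie between the start sites of TAP1 and PSMB9, outside the bases searched for PSMB9. The windows below show 1 match of each of these genes in capitals, as the repeat or its reverse complement.
TAPBP (chr6:33314079-33314108, minus strand): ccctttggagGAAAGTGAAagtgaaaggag
B2M (chr15:44711369-44711398, plus strand): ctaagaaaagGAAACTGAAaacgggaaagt
TAP1 (chr6:32853818-32853847, minus strand): ggcggccgctTTCGATTTCgctttccccta
TAP2 (chr6:32838778-32838807, minus strand): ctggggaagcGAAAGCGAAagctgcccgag
PSMB8 (chr6:32844031-32844060, minus strand): atctgtggctTTCGCTTTCacttcctcctc

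The core of the hypoxia response element, ACGTG or GCGTG on either strand, was found in 6 of the 10 promoters, those of B2M, HLA-B, PSMB9, both of TAP1 and 1 of PSMB8, where 48.4% of all promoters hold it. TGACG occurred in 6 of the 10 and in 24.5% of all, and ATTGG, the inverted CCAAT box bound by NF-Y, in 5 of the 10 and in 34.6% of all. The windows of TAP1 and PSMB9 overlap by 13 bases, and their match of ATTGG is 1 site that is counted for both. These matches describe letters within a short window and no binding was measured.

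Lists of related genes were described in the same way, by counts and medians, and their counts above and below 0 stand beside the 43.6% of all genes above 0 and 56.4% below with the deposited values, which became 64.0% and 36.0% with the columns scaled to equal sums. Of 12 other heavy chains and class I-like molecules, 10 had a mean FPKM of at least 0.5, 8 of them were above 0 and 2 below it, and their median log2 change was 0.25. With the deposited values HFE, a class I-like regulator of iron uptake, was the only one at least 1.5-fold higher, with 12.7 and 19.1 FPKM, and MICA, a stress-induced ligand of the NKG2D receptor, the only one at least 1.5-fold lower, with 4.23 and 2.38 FPKM. With equal sums HLA-F joined HFE above that limit. HLA-F, a nonclassical heavy chain, had 2.84 and 3.92 FPKM, a log2 change of 0.45. HLA-F was singled out after its values were seen.

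None of the 9 listed genes for peptide loading and trimming differed by 1.5-fold with the deposited values, and 5 were above 0 and 4 below, which became 8 and 1 with equal sums. CANX, the remaining gene of this list, had no row. With equal sums HSPA5, the chaperone BiP, and ERAP1 were at least 1.5-fold higher (log2 changes 0.67 and 0.65), and with quantile normalization HSPA5 was (0.66). The most abundant were CALR, the chaperone calreticulin, with 281 and 337 FPKM (log2 change 0.26), and PDIA3, its partner ERp57, with 202 and 223 FPKM (0.14). TAPBPL, a relative of tapasin that edits peptides, was low, with 0.917 and 0.746 FPKM. ERAP1, an aminopeptidase that trims peptides for class I molecules, had 18.7 and 25.2 FPKM (0.43). TAPBPL, ERAP1 and HSPA5 were singled out after their values were seen.

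All 8 genes of the proteasome list were below 0 with the deposited values, with a median log2 change of -0.46. PSMB10 and PSME3, a subunit of the nuclear proteasome activator, were at least 1.5-fold lower, PSME3 with 24.3 FPKM in normoxia and 14.72 in hypoxia (-0.72). The subunits of the interferon-inducible activator PA28, PSME1 and PSME2, had log2 changes of -0.13 and -0.45. With the columns scaled to equal sums or quantile normalized, 1 of the 8 genes, PSME1, turned above 0, and the list's median was then -0.24 or -0.19. With equal sums none of the 8 was at least 1.5-fold lower, and with centring on the median of all genes PSME3 alone was. PSMB5, PSMB6, PSMB7, PSME1 and PSME2 were named for their roles, with their values already seen.

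Among 14 transcription factors that act on class I promoters, 8 were above 0 and 6 below, which became 11 and 3 with equal sums. IRF1, an interferon-induced activator of TAP1, PSMB9 and the heavy chains, was the only one to differ by 1.5-fold with the deposited values, with 16.3 FPKM in normoxia and 10.1 in hypoxia (log2 change -0.69, and -0.47 with equal sums). IRF1 stayed at least 1.5-fold lower with centring (-0.62) and with quantile normalization (-0.62). With equal sums 4 of the 14 were at least 1.5-fold higher and none lower. STAT2, a transducer of type I interferon signals, had 23.9 and 35.4 FPKM (0.56). STAT2 was at least 1.5-fold higher with equal sums (0.79), centring (0.63) and quantile normalization (0.69). NLRC5, the class I transactivator, was low and nearly level, with 0.674 and 0.654 FPKM. Of the 9 interferon receptor and signalling genes, 7 had a mean FPKM of at least 0.5 and none of them differed by 1.5-fold with the deposited values. With equal sums JAK1 and SOCS3, an inhibitor of cytokine signalling, were at least 1.5-fold higher (0.73 and 0.59), and with quantile normalization JAK1 was (0.71). The most abundant, IFNGR1 and the kinase JAK1, had 64.6 and 63.5 FPKM and 45.7 and 64.9 FPKM. JAK2, the other kinase of the interferon gamma receptor, was listed at 0.151 and 0.141 FPKM. STAT2, NLRC5, JAK2 and SOCS3 were singled out after their values were seen.

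**Figure D3:**
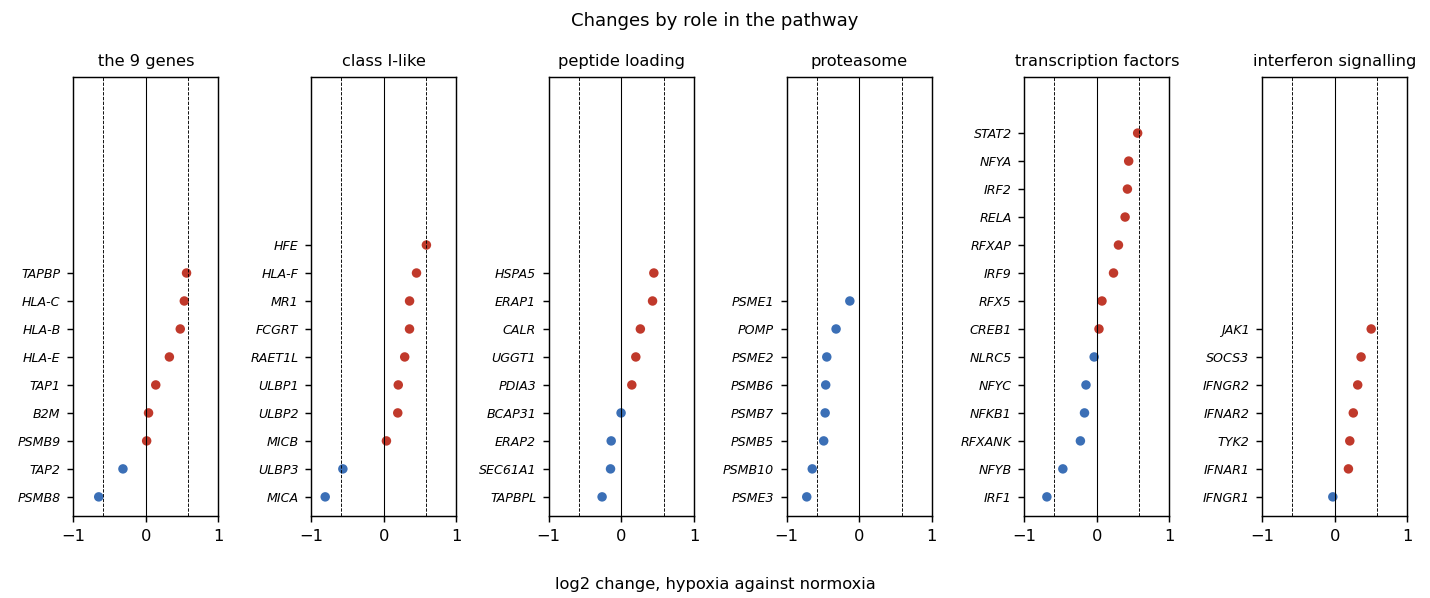
Log2 change from normoxia to hypoxia (horizontal axis) of the genes whose mean FPKM reached 0.5, 1 panel for the 9 genes and 1 for each list of related genes, red above 0 and blue below, without error bars because each condition has 1 pooled value. Dashed lines mark 1.5-fold. With the deposited values all 8 proteasome genes lie below 0 (PSME1 above it with equal sums or quantile normalization), while 8 of 10 class I-like genes lie above it.

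The labelled cell type was checked with marker genes. Of 10 squamous epithelial markers, 9 were listed, from 398 and 442 FPKM for KRT5 down to 5.10 and 3.26 for KRT6A. KRT14, the remaining one, had no row. Why a gene had no row was not tested, so a missing row does not show that a gene was silent. Of 12 leucocyte markers 4 were listed, none of them reached a mean FPKM of 0.5, and together they summed to 0.356 FPKM in normoxia and 1.00 in hypoxia. The 8 genes chosen to check the hypoxic response were all at least 1.5-fold higher, with log2 changes from 1.02 (VEGFA) to 5.58 (NDRG1). These lists were written with earlier results of these data known, so they are no independent check.

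The other genes on the haplotype contigs of chromosome 6 offer a comparison within rows of the same kind. Of the 103 such genes whose mean FPKM reached 0.5, 16.5% were at least 1.5-fold higher and 7.77% at least 1.5-fold lower, and their median log2 change was 0.04. The median of the 8 genes read from haplotype rows, which leaves out B2M, was 0.23 and lay above both this value and the -0.07 of all genes. The set of 103 genes was chosen after the values were seen.

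The count of genes past 1.5-fold depended on how the columns were scaled. The FPKM values of all transcripts summed to 536005 in normoxia and 458431 in hypoxia, and scaling them to equal sums moved every log2 change by about 0.23. Under that scaling HLA-B, HLA-C and TAPBP were at least 1.5-fold higher and none of the 9 was at least 1.5-fold lower, where 18.6% of all genes were higher and 5.01% lower. Quantile normalization gave the same 3 genes higher and 0 lower, where 10% of all genes were higher and 9.72% lower. Centring on the median of all genes gave 2 (HLA-C and TAPBP) and 0, where 12.4% were higher and 8.76% lower. PSMB8 was thus past 1.5-fold under none of the 3 other scalings. Among all genes, the share of the 1.5-fold differences that were upwards was 46.9% as deposited, 78.8% with equal sums, 58.6% with centring and 50.7% with quantile normalization. The direction of each of the 9 genes was the same under the 3 other scalings and, for the 3 genes with several listed transcripts, with the most abundant transcript alone, while another pseudocount or FPKM limit cannot turn a direction. HLA-C ranged from 0.52 to 0.75, TAPBP from 0.53 to 0.79 and HLA-B from 0.47 to 0.73 on the log2 scale. PSMB8 ranged from -0.65 to -0.42 and TAP2 from -0.32 to -0.09, while TAP1 ranged from 0.13 to 0.36. With equal sums the difference of TAP1 was larger in size than that of TAP2. For the genes nearest to level the ranges were 0.01 to 0.24 for PSMB9 and 0.04 to 0.28 for B2M. Differences between genes within a condition, such as that between PSMB8 and PSMB9, do not depend on a common scaling factor.

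**Figure D4:**
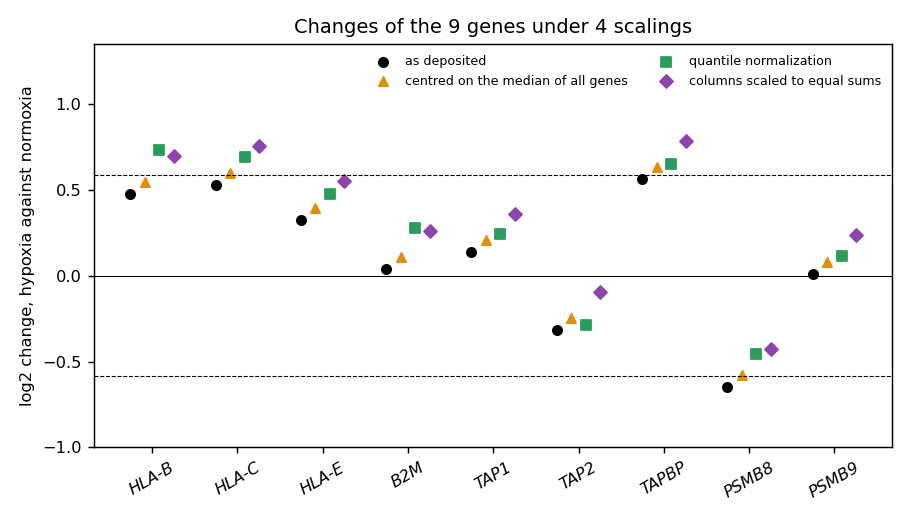
Log2 change from normoxia to hypoxia (vertical axis) of the 9 genes with the deposited values and under 3 other scalings (symbols), without error bars because each condition has 1 pooled value. Dashed lines mark 1.5-fold. No gene crosses 0, while HLA-C and TAPBP pass the upper line under each of the other scalings, HLA-B under quantile normalization and equal sums, and PSMB8 lies beyond the lower line with the deposited values only.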

How the data were processed

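Poly(A)-selected stranded libraries of SQ20B cells were sequenced by the authors, 4 replicates per condition. Reads were aligned to hg19 with STAR 2.3.0.1, and the FPKM values were deposited by the authors from Cufflinks 2.1.1 with RefSeq annotation, 1 value per transcript and condition. The 4 columns of the authors' own comparison (fold change, test statistic, p-value and q-value) were not used. Samples were grouped by their source label, since the treatment text of the labels describes hypoxia for every sample.

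RefSeq identifiers were paired with symbols of GRCh38.p14 (24293 of 24812 transcripts). FPKM was summed per gene and compared with 0.1 added. The rule for rows on primary chromosomes left B2M alone, so haplotype rows were added for the other 8 genes. Fold limits of 1.5, 1.2 and 2 took the place of a test. The 9 genes and the lists were chosen with earlier results of these data known, and some related genes are not reported here. By rule, the named genes were the 9 genes and, per list, the genes past 1.5-fold (at most 4) or else the 2 most abundant, and of marker lists the highest and lowest. Genes named beyond this rule were chosen with their values already seen, as stated where they appear. Gene positions came from the GENCODE annotation of GRCh37 and promoters from RefSeq. Depths of single samples were not analysed here. Python 3.11.15, numpy 2.4.6, pandas 2.3.3 and matplotlib 3.10.9 were used.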

Additional observations from a re-analysis of the deposited data

How the results depend on the processing

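With rows on primary chromosomes alone, B2M was the only gene left, with no gene past 1.5-fold in either direction and a median of 0.04, and adding haplotype rows gave 1 gene at least 1.5-fold lower. For B2M alone the median was 0.26 with equal sums and 0.28 with quantile normalization. With haplotype rows included, 0 genes were at least 1.5-fold higher and 1 was lower, and these counts became 3 and 0 with equal sums, 2 and 0 with centring, 3 and 0 with quantile normalization, 4 and 2 at 1.2-fold and 0 and 0 at 2-fold. The median of the 9 genes, 0.14, was 0.36 with equal sums and 0.28 with quantile normalization. Combinations of haplotype rows with another setting were chosen after seeing the data. Both pseudocounts (0.01 and 1) and, for the 3 genes with several transcripts, the most abundant transcript in place of the sum left the counts of the 9 genes as they were. The changed FPKM limits could not alter them, since the lowest mean among the 9 genes was 8.36 FPKM. Without replicate values, a move of a median by 0.1 or more on the log2 scale was counted as a change. No paired analysis was possible because the table holds 1 pooled value per condition, and for the same reason leaving out replicates was not run. Read depth per transcript is unknown, so low levels such as those of the minor TAPBP transcripts carry no limit of detection.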

Other observations

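MHC class II molecules present peptides from outside the cell, and their HLA genes lie beside TAP and PSMB genes on chromosome 6. The list described here held such HLA genes and also CD74 and CIITA, and those of its genes that were found were at low levels. The other 8, among them HLA-DRA, CD74 and CIITA, had no row, which does not show their level. Of the 12 genes of this list, 4 were found, and HLA-DPA1 and HLA-DPB1 were the most abundant, with 2.62 and 3.08 FPKM and with 2.67 and 2.92 FPKM in normoxia and hypoxia. Their log2 changes were 0.23 and 0.12. HLA-DOB had 1.16 and 1.02 FPKM (-0.17), and HLA-DMA, whose mean lay under the limit of 0.5 FPKM, had 0.243 and 0.455 FPKM (0.70). HLA-DOB and HLA-DMA were singled out after their values were seen.

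The ligands of the activating NKG2D receptor did not share a direction. MICA (log2 change -0.80) and ULBP3 (-0.56, with 5.30 and 3.56 FPKM) were lower in hypoxia, while MICB had 24.9 and 25.6 FPKM (0.04), ULBP2 had 14.4 and 16.5 FPKM (0.20) and ULBP1 had 1.44 and 1.67 FPKM (0.20). RAET1L, another ligand of this receptor, was low, with 0.647 and 0.814 FPKM (0.29). These genes were singled out after their values were seen, and their differences were not tested.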
